A study of Mus musculus with 6 samples.

Results

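The genes described here are 34 genes of fatty acid oxidation and ketogenesis, picked by symbol, with earlier results of these data known, out of 22609 genes listed for each liver library. They are the regulators Ppara, Ppargc1a, Creb3l3 and Fgf21, the enzymes and carriers that bring fatty acids into mitochondria and peroxisomes and shorten them there, 2 enzymes of ketone body metabolism, and 3 other genes known as targets of the receptor PPARα. All 34 were in the files and all 34 passed the filter on low counts. Most are strongly transcribed in liver: the median of their mean wild type levels was 265.6 CPM (counts scaled to a common library total), against 17.3 CPM over the 12522 genes that passed the filter.

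In the fed liver fatty acids are stored or exported, and during fasting they are oxidised. Long fatty acids are activated to acyl-CoA, carried through the inner mitochondrial membrane as carnitine esters, and cut down in repeated cycles to acetyl-CoA, which hepatocytes turn into ketone bodies for other tissues. Peroxisomes shorten very long chains first. PPARα, a nuclear receptor that binds fatty acids and pairs with the retinoid X receptor, drives transcription of many of these genes, with the coactivator PGC-1α (Ppargc1a) and the transcription factor CREBH (Creb3l3) acting beside it.

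RNA from adult liver of C57BL/6 mice was sequenced in 3 wild type libraries and 3 libraries of Igfbp7-/- mice, in which the gene for a secreted insulin-like growth factor binding protein was removed by Cre-loxP recombination. The labels name no agent for either group. The sources used here name no promoter for the Cre and no floxed or Cre-carrying control, and they give neither sex, exact age, litter, hour of collection nor feeding state. They do not say whether the 3 libraries of a genotype come from separate animals, so the p-values measure only the spread between these libraries, which may be technical. The comparison asks how loss of Igfbp7 changes liver transcripts.

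Gene counts per library ran from 16712568 to 22419411. Igfbp7 itself had 76.4, 79.7 and 60.9 CPM in wild type libraries 1 to 3 and 0.237, 0.109 and 0.442 CPM in knockout libraries 1 to 3, so each library matched its label. Hepatocyte markers dominated, with summed levels of 107300 to 128400 CPM in wild type and 122200 to 143800 CPM in knockout libraries. Of 15 muscle and pancreas markers, 10 (Ckm, Myh4, Myh1, Mb, Prss1, Try4, Cpa1, Pnlip, Amy2a5 and Ins2) were at 0 in all 6 libraries. Of 12 adipocyte markers, 2 (Retn and Ucp1) were at 0 in all 6. The 12 summed to 2331 to 3325 CPM in wild type and 1954 to 3403 CPM in knockout libraries. Car3 alone had 2307 to 3295.5 CPM in wild type and 1921.5 to 3374 CPM in knockout libraries. Of the 5 adipocyte markers tested, 2 were higher and 3 lower in the knockout. Markers of Kupffer cells and macrophages mostly had lower fitted levels in the knockout, with 16 lower and 1, Cd163, higher. Their 17 tested genes, none of them at 0, summed to 793.2 to 888.4 CPM in wild type and 429.2 to 681.8 CPM in knockout libraries. An unadjusted p under 0.05 in the lower direction was reached by 14 of the 17, beside 7.35% of all genes tested, and edgeR called 0. Hepatocyte markers had a median log2 fold change of 0.15 (14 tested). The medians were -0.56 for T, NK and B cells (9 tested) and -0.44 for cholangiocytes (7 tested). They were -0.14 for stellate cells (17 tested) and -0.04 for sinusoidal endothelium (14 tested). Wild type library 1 stood apart in clock genes: Arntl, a morning gene of the core clock, was at 17.6 CPM there, at 2.85 and 2.31 CPM in the other wild type libraries and at 2.75, 1.91 and 2.21 CPM in the knockout libraries. Dbp, an evening gene, was at 10.2 CPM in wild type library 1, at 64.6 and 51.0 CPM in the others of that genotype and at 63.5, 78.8 and 57.6 CPM in the knockout. A clock score, the mean log2 CPM of evening genes minus that of morning genes, was -0.05, 2.85 and 3.31 for wild type libraries 1 to 3, and 3.63, 4.195 and 3.99 for the knockout libraries.

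None of the 34 genes passed the test of knockout against wild type (edgeR's quasi-likelihood test, Benjamini-Hochberg adjusted p under 0.05 over 12522 genes), which called 27 genes in all, or 0.216% of those tested. The lowest adjusted p among the 34 was 0.134, of Cpt1a. DESeq2 called 1 of the 34, Cpt1a, with an adjusted p of 0.0108. It also called many more genes over all than edgeR did, a number given with the processing alternatives below. limma-voom called 0 of the 34. By direction the 34 leaned upward: 31 had a higher and 3 a lower fitted level in the knockout, beside 6293 higher and 6229 lower over all genes tested. Their median log2 fold change was 0.22, against 0.00 over all genes tested, and the single values ran from -0.54 (Pdk4) to 1.07 (Fgf21). Hepatocyte markers also leaned upward, with 10 of 14 tested higher, 4 lower and a median of 0.15.

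An unadjusted p under 0.05 was reached in the higher direction by 12 of the 34, beside 8.1% of all genes tested, and in the lower direction by 1, Crot, beside 7.35%. The 3 knockout values lay above all 3 wild type values in 12 genes, where 10.7% of all genes tested did so, and below them in 2, Crot and Pdk4, where 10.1% did so. In the other 20 genes the genotypes overlapped. The count of 12 depended on the libraries and settings: it was 4 without wild type library 3, 6 without knockout library 1, 8 without wild type library 1 or knockout library 2, 9 without wild type library 2, 12 without knockout library 3, 7 with upper-quartile scaling and 5 when the clock score entered the model. The median stayed between 0.15 and 0.26 under those same changes.

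The libraries contributed unequally. Knockout library 1 held the highest of the 6 values in 20 of the 34 genes, knockout library 2 in 9 and knockout library 3 in 2. Wild type library 3 held the lowest value in 19 genes. The 34 genes together took 1.43%, 1.45% and 1.35% of the gene counts in wild type libraries 1 to 3 and 1.595%, 1.45% and 1.53% in the knockout libraries. In the plot of the 34 genes by library knockout library 1 and wild type library 3 are seen at the right and left edges of many rows. Whether the lower macrophage markers, the clock score or the levels of hepatocyte markers play a part in the levels of the 34 genes was not tested, and in whole tissue fewer cells of a type cannot be told apart from less RNA per cell.

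**Figure D1:**
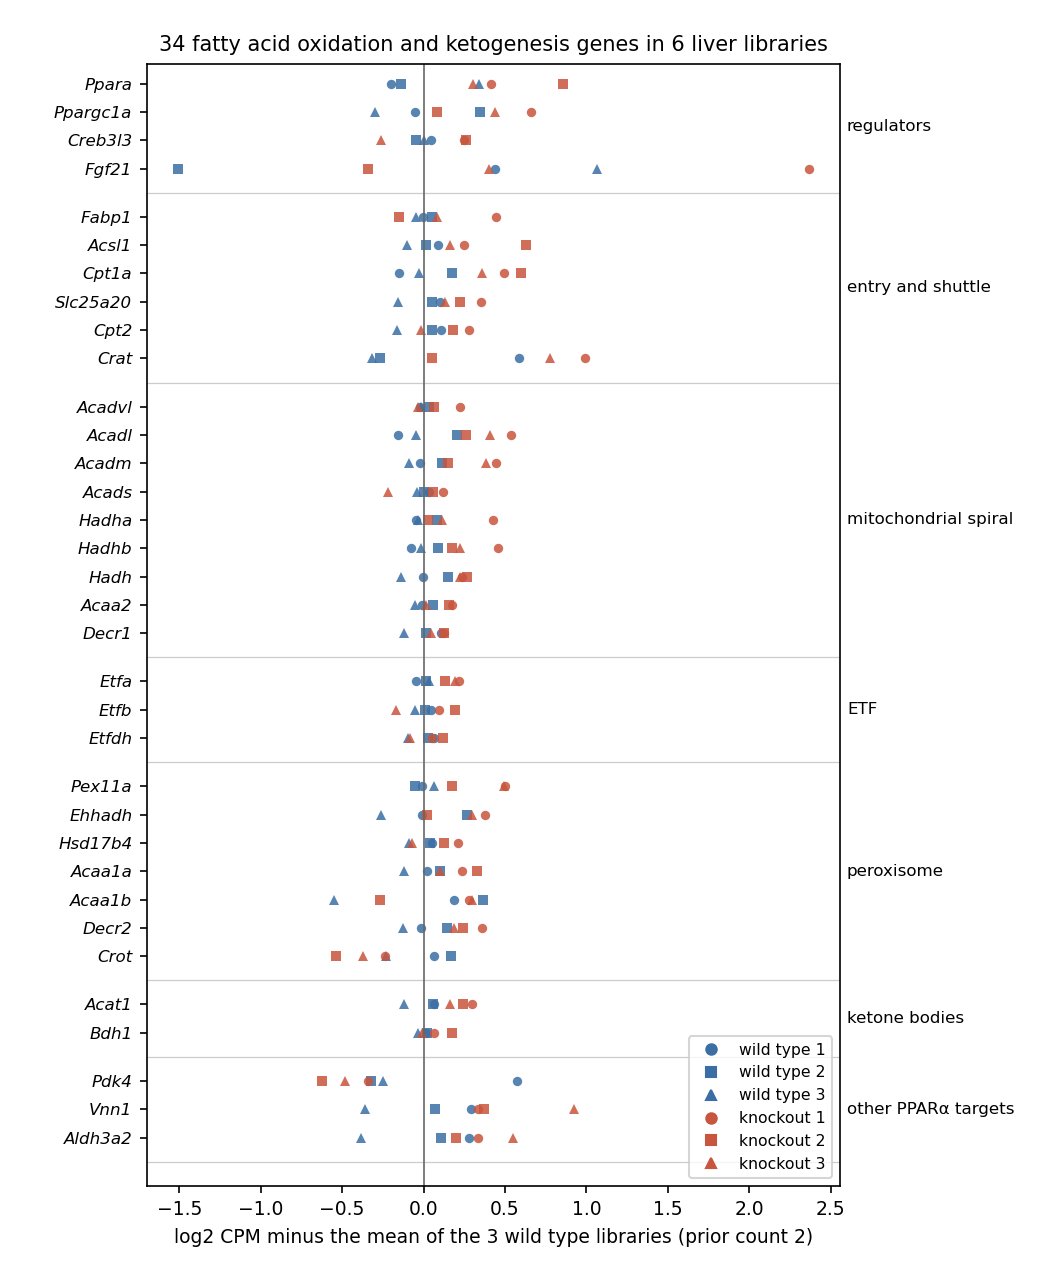
Log2 CPM of each of the 34 genes in each library, minus the mean of the 3 wild type libraries (horizontal axis, prior count 2), with genes in rows grouped by role, blue for wild type and red for knockout, and marker shapes for libraries 1 to 3. In 12 rows all red points lie right of all blue points and in 2 rows, Crot and Pdk4, they lie left of them.

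The regulators overlapped between the genotypes in all 4 cases. Ppara, the receptor gene, had 312, 325 and 453 CPM in wild type libraries 1 to 3 and 476, 649 and 441 CPM in the knockout. Knockout library 3 was below wild type library 3, and the other knockout values were above all wild type values. The fitted ratio of knockout to wild type was 1.44 (95% interval 1.07 to 1.93), with an adjusted p of 0.240 in edgeR. The intervals given for single genes are not adjusted for the number of genes tested. Without knockout library 2 the log2 fold change was 0.34 and without wild type library 3 it was 0.71, beside 0.52 with all libraries.

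Ppargc1a, the fasting-induced coactivator, had 9.94, 13.1 and 8.37 CPM in wild type and 16.3, 10.9 and 14.0 CPM in knockout libraries. Its knockout library 2 fell inside the wild type range, and the ratio was 1.31 (95% interval 0.955 to 1.79). Creb3l3, which encodes a membrane-bound factor released under fasting and endoplasmic reticulum stress, had 376, 353 and 366 CPM in wild type and 434, 437 and 304 CPM in knockout libraries. Both the highest and the lowest of its 6 values were knockout values, and the ratio was 1.07 (95% interval 0.854 to 1.35).

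Fgf21, the hormone that liver releases in fasting under PPARα, was the scarcest of the 34. It had 19, 4 and 28 counts in wild type libraries, or 1.01, 0.187 and 1.62 CPM, and 87, 10 and 20 counts in knockout libraries, or 4.12, 0.546 and 0.982 CPM. Only knockout library 1 was above the wild type range. The log2 fold change of 1.07 ± 0.81 (SE) turned to -0.24 without that library.

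Of the 6 genes for fatty acid binding, activation and the carnitine shuttle, all 6 had a higher fitted level in the knockout, and in 3 the genotypes did not overlap. Cpt1a, the outer-membrane carnitine palmitoyltransferase and the regulated gate of mitochondrial entry, had 478, 599 and 520 CPM in wild type and 745, 801 and 679 CPM in knockout libraries. The lowest knockout value was above the highest wild type value. Its ratio was 1.39 (95% interval 1.15 to 1.69), and its log2 fold change stayed between 0.41 and 0.57 with each library left out in turn. Over all 14 alternatives of processing the log2 fold change of Cpt1a ran from 0.36 to 0.57, and only DESeq2 called it.

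Acsl1, the main acyl-CoA synthetase of liver, which activates fatty acids, had 1071, 1015 and 937 CPM in wild type and 1193, 1559 and 1127 CPM in knockout libraries. Here too the groups did not overlap, with knockout library 2 the farthest up, and the ratio was 1.28 (95% interval 1.02 to 1.62). Slc25a20, the carrier that swaps acylcarnitine for carnitine across the inner membrane, had 111, 107 and 92.5 CPM in wild type and 132, 120.5 and 113 CPM in knockout libraries. Its groups were apart by little, and the ratio was 1.18 (95% interval 1.002 to 1.38).

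The other 3 overlapped. Cpt2, which returns the acyl group to CoA inside the mitochondrion, had a ratio of 1.11 (95% interval 0.928 to 1.32). Fabp1, the abundant fatty acid binding protein of hepatocyte cytosol, had a ratio of 1.11 (95% interval 0.840 to 1.46) and a log2 fold change of -0.03 without knockout library 1. Crat, carnitine acetyltransferase, had the widest spread of the group, a CV of 37.9% in wild type and 31.1% in knockout libraries, and a ratio of 1.52 (95% interval 0.957 to 2.40). Its log2 fold change of 0.60 became 1.23 when the clock score entered the model and lay between 0.40 and 0.95 with each library left out. Within a library, the count of Cpt1a over that of Cpt2 was 2.59, 3.36 and 3.40 across the wild type libraries against 3.59, 4.12 and 4.003 across the knockout libraries, so the balance of the outer to the inner transferase transcript was higher in each knockout library than in any wild type library. The ratio of Cpt1a to Acacb, whose enzyme makes the malonyl-CoA that inhibits CPT1, was also higher in each knockout library, at 7.42 to 8.85 against 4.31 to 6.85. Both ratios were computed after the values of Cpt1a had been seen and have no test.

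**Figure D2:**
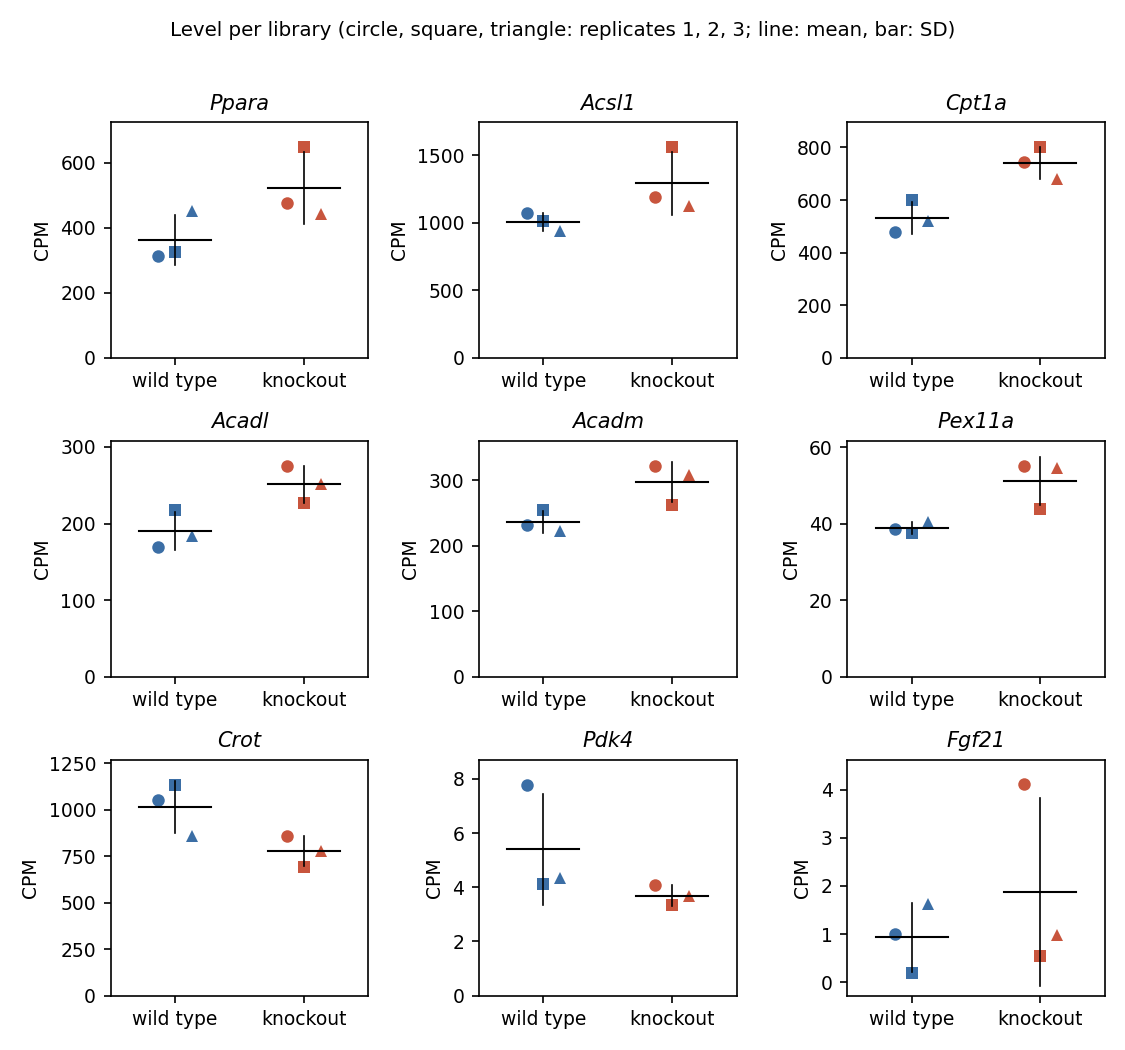
Level in CPM of 9 of the genes in each library, with circle, square and triangle for libraries 1, 2 and 3 of a genotype, a line for the mean and a bar for the SD of 3. Cpt1a, Acsl1, Acadl, Acadm and Pex11a have all knockout points above all wild type points, Crot and Pdk4 have them below, and Ppara and Fgf21 overlap.

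The 9 genes of the mitochondrial spiral encode the acyl-CoA dehydrogenases for very long, long, medium and short chains, the trifunctional protein, the short-chain hydroxyacyl-CoA dehydrogenase, a thiolase, and a reductase for unsaturated chains. In 4 of the 9 the knockout values lay above all wild type values, in the other 5 they overlapped, and knockout library 1 was the highest of the 6 libraries in 8 of the 9. The median log2 fold change of the 9 was 0.20.

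Acadl, the long-chain dehydrogenase, had 170, 218 and 184 CPM in wild type and 275, 227 and 251 CPM in knockout libraries. Wild type library 2 and knockout library 2 came close, without overlap. The ratio was 1.32 (95% interval 1.09 to 1.59), with an adjusted p of 0.180 in edgeR. Acadm, the medium-chain dehydrogenase, had 232, 255 and 222 CPM in wild type and 321, 263 and 309 CPM in knockout libraries. Again the second libraries were the closest, and the ratio was 1.26 (95% interval 1.06 to 1.49).

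The dehydrogenases at the ends of the chain-length range differed less. Acadvl, for very long chains, which shares 24.0% of its 50-base windows with the neighbouring gene Dvl2, had a ratio of 1.06 (95% interval 0.902 to 1.253), and Acads, for short chains, a ratio of 0.996 (95% interval 0.843 to 1.18). Within a library the count of Acadl over that of Acads was 0.813, 1.066 and 0.924 across the wild type libraries against 1.24, 1.068 and 1.43 across the knockout libraries. The lowest knockout ratio lay just above the highest wild type ratio. For Acadm over Acads the genotypes overlapped, with 1.234 in knockout library 2 and 1.247 in wild type library 2. They also overlapped in the ratios of Etfa to Etfb, Acaa1b to Acaa1a, Decr2 to Decr1 and Acaa2 to Hadha. That Acads and Acadl differ in their response was not tested.

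Hadha and Hadhb encode the α and β subunits of the trifunctional protein, which carries out the last 3 steps of the spiral on long chains. The genes lie head to head, so that much of the RefSeq promoter window of one is that of the other. The bases before the Hadhb start are shown to make this shared stretch visible, with the 228 bases that also lie in the Hadha window in capitals, on the plus strand of GRCm38.p6, chr5:30155003-30155252.
Hadhb: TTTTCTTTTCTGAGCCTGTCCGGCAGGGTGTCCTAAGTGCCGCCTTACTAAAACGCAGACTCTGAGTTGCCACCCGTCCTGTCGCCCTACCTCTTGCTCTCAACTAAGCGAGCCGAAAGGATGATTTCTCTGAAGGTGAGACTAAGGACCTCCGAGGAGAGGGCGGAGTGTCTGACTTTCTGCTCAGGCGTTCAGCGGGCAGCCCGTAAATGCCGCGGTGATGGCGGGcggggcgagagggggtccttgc
Hadha had 342, 373 and 346 CPM in wild type and 476, 360 and 381 CPM in knockout libraries. Knockout library 1 was far above the rest, and knockout library 2 fell below wild type library 2. The ratio was 1.15 (95% interval 0.945 to 1.39). Hadhb had 20.04, 22.4 and 20.9 CPM in wild type and 29.0, 23.8 and 24.6 CPM in knockout libraries. Its groups did not overlap, and the ratio was 1.22 (95% interval 1.03 to 1.46).

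The subunits of one complex thus had unequal transcript levels in the files. Per kilobase of the longest coding transcript, Hadha was at 88.0 and Hadhb at 10.3 CPM per kb in wild type libraries (means of 3). Hadhb has a near copy: 61.5% of the windows of 50 bases along its transcripts occur letter for letter in the processed pseudogene Gm13910, which has no row in the count files. Over 1428 coding bases the copy differed at 3, an identity of 99.8%, with a longest identical run of 685 bases. A stretch of 120 coding bases, numbered 655 to 774 from the first base of the start codon, shows how near the copy is, with the differing base in capitals.
Hadhb: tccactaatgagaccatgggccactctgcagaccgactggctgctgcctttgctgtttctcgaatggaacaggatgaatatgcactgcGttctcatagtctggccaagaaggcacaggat
Gm13910: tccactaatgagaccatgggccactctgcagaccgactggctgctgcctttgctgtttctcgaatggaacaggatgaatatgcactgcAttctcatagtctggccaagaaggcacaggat
Alignments of reads that fit several places are held apart from the gene counts in each file, and the part this plays in the low level of Hadhb was not tested. The count of Hadha over that of Hadhb was 17.1, 16.6 and 16.5 across the wild type libraries against 16.4, 15.1 and 15.5 across the knockout libraries. The knockout ratios lay below the wild type ratios, and all 6 fell in a narrow range.

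Hadh, the dehydrogenase for short hydroxyacyl chains, had 324, 360.2 and 295 CPM in wild type and 383, 391 and 379 CPM in knockout libraries. The 3 knockout values lay close together, with a CV of 1.56%, and above all wild type values. The ratio was 1.18 (95% interval 1.002 to 1.39). Acaa2, the mitochondrial thiolase, and Decr1, the dienoyl-CoA reductase, overlapped between the genotypes, with ratios of 1.08 (95% interval 0.916 to 1.28) and 1.07 (95% interval 0.922 to 1.24).

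The electron transfer flavoprotein takes the electrons of the acyl-CoA dehydrogenases to the respiratory chain. Etfa, its α subunit, was higher in each knockout library, with a mean of 276 ± 8.07 CPM against 244 ± 6.59 CPM (SD, n = 3 each) and a fitted ratio of 1.13 (95% interval 0.991 to 1.29). Etfb, the β subunit, and Etfdh, the ubiquinone oxidoreductase, overlapped and had ratios of 1.03 (95% interval 0.866 to 1.23) and 1.02 (95% interval 0.872 to 1.20). For Etfb, 67.3% of the windows of 50 bases also belong to the overlapping gene model Gm45233, so its level rests on the annotation used.

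**Figure D3:**
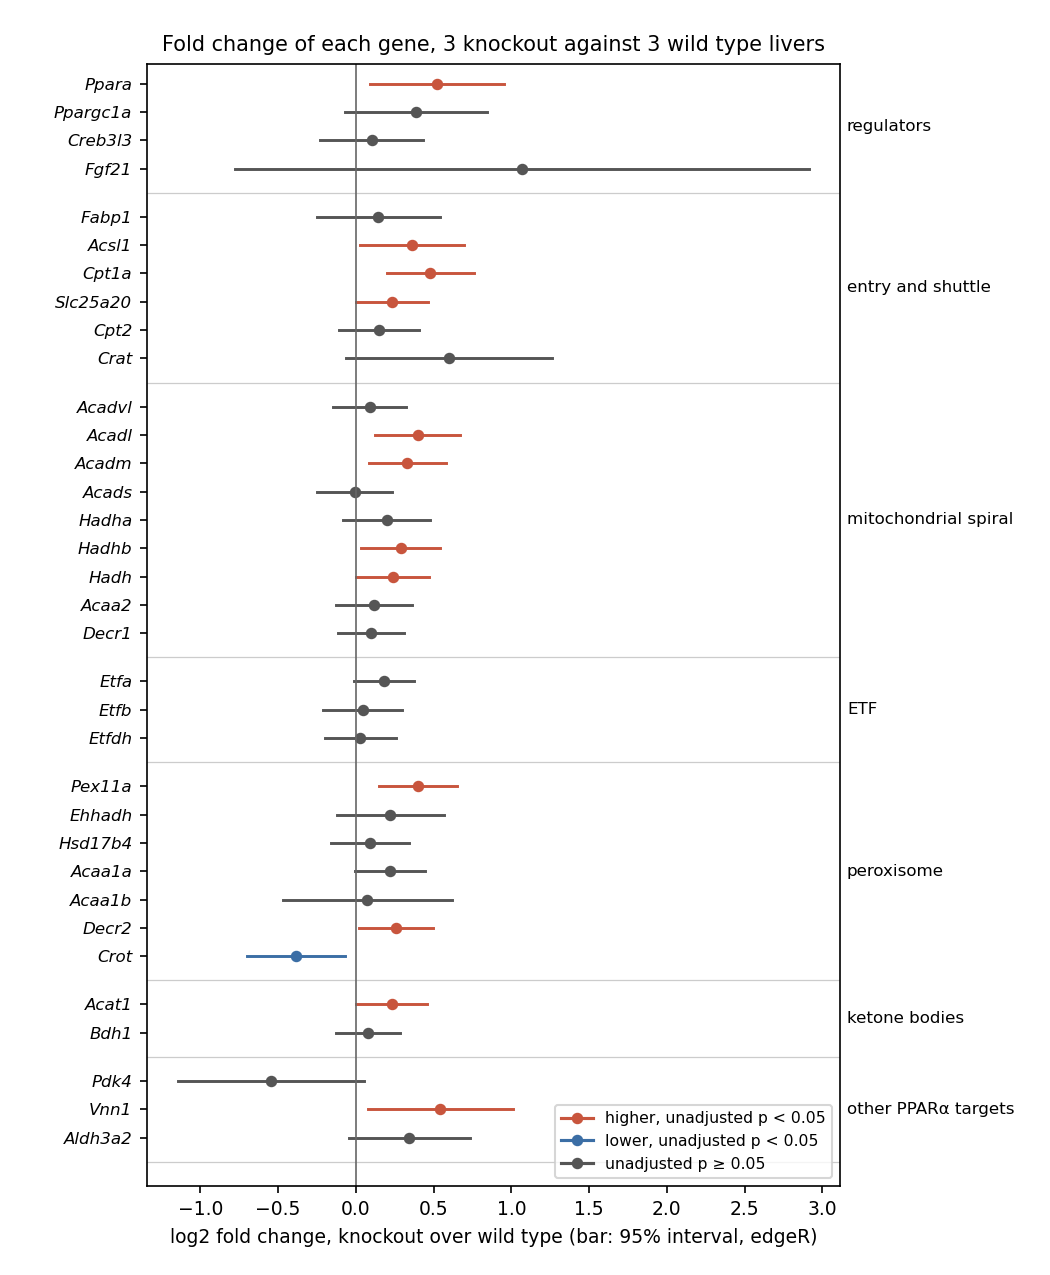
Log2 fold change of each of the 34 genes, knockout over wild type, with its 95% interval from edgeR (horizontal axis), in rows by role. The 12 intervals in red lie wholly above 0 and the 1 in blue, of Crot, wholly below it, all before adjustment for the 12522 tests, and 31 of the 34 points lie right of 0.

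Peroxisomal genes held both the second smallest p and the only gene lower at an unadjusted p under 0.05. Pex11a, a membrane protein of peroxisome division and a PPARα target, had 38.5, 37.4 and 40.5 CPM in wild type and 55.0, 43.8 and 54.5 CPM in knockout libraries. The wild type values lay close together and all knockout values were above them. The ratio was 1.32 (95% interval 1.11 to 1.57), with an adjusted p of 0.149 in edgeR. Decr2, the peroxisomal dienoyl-CoA reductase, had 257, 286 and 238 CPM in wild type and 333, 307 and 295 CPM in knockout libraries. Its groups did not overlap, and the ratio was 1.20 (95% interval 1.01 to 1.41).

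Crot, carnitine octanoyltransferase, which exports shortened acyl groups from the peroxisome as carnitine esters, went the other way. It had 1050.0, 1131 and 859 CPM in wild type and 856, 693 and 779 CPM in knockout libraries. Knockout library 1 came just under wild type library 3, so the groups only just did not overlap. The ratio was 0.766 (95% interval 0.615 to 0.954), with an adjusted p of 0.241 in edgeR, and its log2 fold change stayed between -0.49 and -0.30 with each library left out in turn. Crot and Crat both make carnitine esters, of medium and of very short chains. The count of Crot over that of Crat was 33.2, 64.8 and 50.8 across the wild type libraries against 20.5, 31.8 and 21.5 across the knockout libraries. Each knockout ratio was below all wild type ratios. This ratio was chosen after the values were seen and was not tested.

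The peroxisomal thiolases are made by a pair of near-identical genes. The comparison of 120 coding bases, numbered 578 to 697 from the start codon, shows how alike they are, with the 4 differing bases in capitals.
Acaa1a: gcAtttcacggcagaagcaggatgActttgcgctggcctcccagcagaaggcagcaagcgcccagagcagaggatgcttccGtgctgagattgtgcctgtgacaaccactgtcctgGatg
Acaa1b: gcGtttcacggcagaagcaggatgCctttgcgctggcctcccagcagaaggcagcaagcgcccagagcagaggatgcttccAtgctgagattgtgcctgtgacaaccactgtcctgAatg
Over 1275 coding bases they differed at 44, an identity of 96.5%, and 34.03% of the windows of 50 bases of Acaa1a occur letter for letter in Acaa1b, so their counts are uncertain. Acaa1a had 114, 121 and 104 CPM in wild type and 132, 141 and 120.5 CPM in knockout libraries. Knockout library 3 fell just under wild type library 2, and the ratio was 1.17 (95% interval 0.999 to 1.36). Acaa1b had 491, 556 and 295 CPM in wild type and 523, 358 and 530.1 CPM in knockout libraries. It spread more than its partner, with a CV of 30.4% against 7.56% in wild type. Its ratio was 1.05 (95% interval 0.722 to 1.53), and its log2 fold change turned to -0.15 without wild type library 3. Ehhadh, the bifunctional enzyme of the inducible peroxisomal pathway, had a ratio of 1.17 (95% interval 0.919 to 1.48), and Hsd17b4, the bifunctional enzyme for branched and very long chains, one of 1.07 (95% interval 0.896 to 1.27). Both overlapped between the genotypes.

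Acat1 and Bdh1 stand at the start and the end of ketone body synthesis. Acat1, the mitochondrial acetoacetyl-CoA thiolase, had 466, 465 and 411 CPM in wild type and 548, 528 and 501 CPM in knockout libraries. All knockout values were above all wild type values, and the ratio was 1.17 (95% interval 1.001 to 1.38). Bdh1, which reduces acetoacetate to β-hydroxybutyrate, had 278, 279 and 270 CPM in wild type and 289, 311 and 273 CPM in knockout libraries. Its groups overlapped in a narrow band, with CVs of 1.94% and 6.49%, and the ratio was 1.06 (95% interval 0.914 to 1.22).

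Of the 3 other targets, 2 had a higher and 1 a lower fitted level in the knockout. Pdk4, the kinase that shuts off pyruvate dehydrogenase in fasting, had 7.76, 4.12 and 4.33 CPM in wild type and 4.07, 3.33 and 3.68 CPM in knockout libraries. Wild type library 1, the one apart in clock genes, was far above the rest, and the other 5 values spanned 3.33 to 4.33 CPM. The ratio was 0.686 (95% interval 0.454 to 1.04), and its log2 fold change of -0.54 became 0.05 when the clock score entered the model and lay between -0.71 and -0.19 with each library left out. Vnn1, a pantetheinase, had 27.9, 23.8 and 17.7 CPM in wild type and 28.6, 29.4 and 43.2 CPM in knockout libraries. Knockout library 1 only just exceeded wild type library 1, and knockout library 3 was the highest. The ratio was 1.46 (95% interval 1.06 to 2.01). Aldh3a2, the fatty aldehyde dehydrogenase, overlapped and had a ratio of 1.27 (95% interval 0.968 to 1.66).

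The intervals bound the size of change these libraries allow. For 21 of the 34 genes the 95% interval lay within a 1.5-fold change in either direction, and for 30 within a 2-fold change. The 4 outside the 2-fold limit were Fgf21, Crat, Pdk4 and Vnn1, all of low level, at most 43.2 CPM in any library.

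Levels within the pathway, per kilobase, were spread widely. Fabp1 led with 6788 ± 234 CPM per kb (SD, n = 3 wild type), followed by Acaa2 with 638 ± 25 and Crot with 338 ± 47 CPM per kb. At the low end were Ppargc1a with 1.62 ± 0.38, Pdk4 with 1.55 ± 0.59 and Fgf21 with 0.986 ± 0.754 CPM per kb, which do not differ beyond their spread. In the upper part of the order, Creb3l3 and Etfdh, at 159 ± 5.09 and 158 ± 9.14 CPM per kb, were neighbours that do not differ beyond their spread, and in its middle the same held for Acads and Ppara, at 109 ± 2.70 and 106 ± 22.8 CPM per kb. Fabp1 was the highest of the 34 in each of the 6 libraries.

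**Figure D4:**
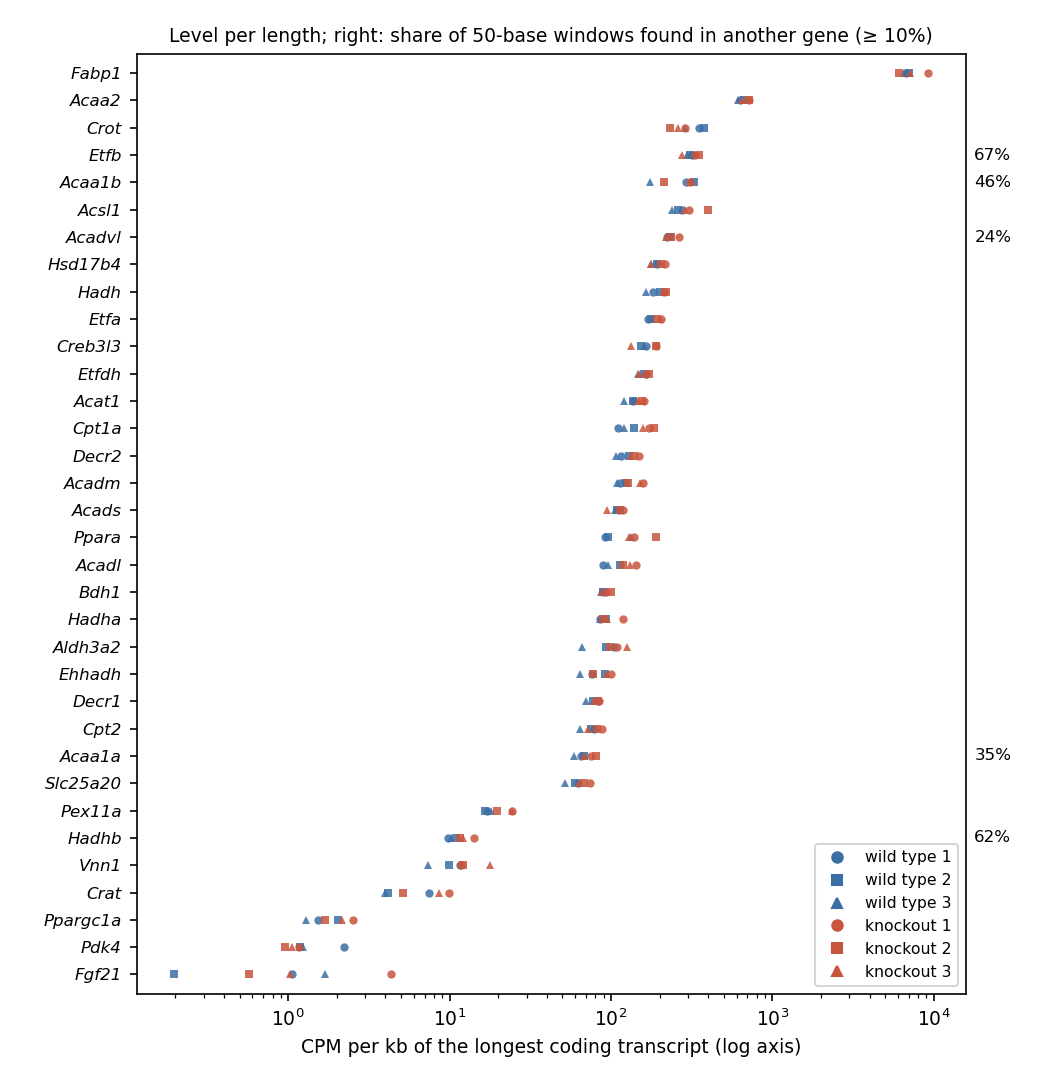
CPM per kb of the longest coding transcript (log axis) for the 34 genes in each library, ordered by the wild type mean, with the share of 50-base windows found in another gene at the right where it is at least 10%. Fabp1 lies at 6109 CPM per kb or more in every library, and Hadhb, with a shared share of 62%, lies far below Hadha.

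PPARα with its partner binds direct repeats of the half-site AGGTCA spaced by 1 base. The RefSeq promoter windows of GRCm38.p6, 250 bases before to 50 after each start, hold 31 promoters of 28 of the 34 genes, and Acaa2, Hsd17b4, Crat, Decr1, Acat1 and Vnn1 were not matched. The repeat AGGTCANAGGTCA with at most 2 mismatches, on either strand, was found for 4 of the 28 genes, Fabp1, Etfa, Slc25a20 and Creb3l3, and in 3.86% of all 32851 promoters or 4.4% of 27025 genes. The search covers only these short windows, and a match is a description of letters. Fabp1 had the closest match, with 1 mismatch, 67 bases before the start. Etfa had 2 mismatches at 77 bases before the start. Creb3l3 had 2 mismatches at 209 bases before 1 of its 2 starts, and the window of its other start held no repeat. These 3 are shown with 30 bases on each side and the repeat in capitals, from chr6:71199782-71199854 (plus strand), chr9:55512278-55512350 (minus strand) and chr10:81092758-81092830 (minus strand).
Fabp1: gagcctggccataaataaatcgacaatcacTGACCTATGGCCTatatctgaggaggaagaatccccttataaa
Etfa: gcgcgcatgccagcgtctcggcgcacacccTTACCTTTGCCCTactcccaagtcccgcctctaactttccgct
Creb3l3: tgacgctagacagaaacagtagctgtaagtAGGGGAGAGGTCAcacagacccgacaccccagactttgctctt
Of the 4 genes with a match, Etfa and Slc25a20 had all knockout values above all wild type values, and Fabp1 and Creb3l3 overlapped. Such a separation was seen in 35.3% of the 34 genes and in 10.7% of all genes tested. Whether a match goes with the level in the knockout was not tested. The single half-site AGGTCA, which the repeat contains, was in the windows of 5 of the 28 genes, Acadm, Acadvl, Cpt1a, Creb3l3 and Fabp1, and in 18.1% of all genes. The E-box CACGTG, bound by clock factors among others, was in those of Fgf21 and Aldh3a2, and in 8.09% of all genes. The cAMP response element TGACGTCA was in none of the 28 and in 2.03% of all genes.

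Genes of the same pathway outside the 34 had a median near that of all genes. Of 55 tested, 31 were higher and 24 lower, and edgeR called 0 (lowest adjusted p 0.0965). An unadjusted p under 0.05 was reached by 8 of the higher genes, 14.5% of those tested, and by 3 of the lower genes. Over all genes tested the shares were 8.1% higher and 7.35% lower. Their median log2 fold change was 0.04. The smallest p belonged to Slc22a5, the carnitine importer of the plasma membrane, with 20.5, 18.7 and 18.4 CPM in wild type and 25.6, 27.5 and 25.3 CPM in knockout libraries, a log2 fold change of 0.44 ± 0.10 (SE). Eci2, a peroxisomal enoyl-CoA isomerase, followed with 0.53 ± 0.12 (SE). Slc27a1, a fatty acid transporter, had 0.56 ± 0.15 (SE), and Acsl6, an acyl-CoA synthetase at under 1 CPM in every library, had -1.55 ± 0.43 (SE).

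Other liver targets of PPARα, some of them also counted among the 55, were more often higher than lower. Of 35 tested, 27 were higher and 8 lower, with a median log2 fold change of 0.26. An unadjusted p under 0.05 was reached by 15 of the higher genes, 42.9% of those tested, and by 1 of the lower genes. Over all genes tested the shares were 8.1% higher and 7.35% lower. Por was the 1 called. It encodes the reductase that feeds electrons to microsomal P450 enzymes, and had 123, 223 and 208 CPM in wild type and 563, 526 and 617 CPM in knockout libraries, with a log2 fold change of 1.62 ± 0.21 (SE) and an adjusted p of 0.0348 in edgeR. The highest library differed from that of the 34: knockout library 3 was highest in 12 of the 35 and knockout library 1 in 9.

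Among 34 regulators and partners of PPARα, 23 were higher and 11 lower, with a median of 0.08. An unadjusted p under 0.05 was reached by 6 of the higher genes, 17.6% of those tested, and by 0 of the lower genes. Over all genes tested the shares were 8.1% higher and 7.35% lower. Their 1 called gene was G0s2, the inhibitor of adipose triglyceride lipase and itself a PPARα target, with 20.6, 10.3 and 15.2 CPM in wild type and 58.3, 52.7 and 59.9 CPM in knockout libraries, a log2 fold change of 1.90 ± 0.22 (SE) and an adjusted p of 0.0256 in edgeR. Por and G0s2 kept their direction but lost the call with the replicate block, with the clock score in the model, and without any 1 knockout library. Por also lost it without wild type library 2.

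Genes that mark feeding and fasting gave no common direction. Of 29 tested, 17 were higher and 12 lower, and edgeR called 0. An unadjusted p under 0.05 was reached by 1 of the higher genes, 3.4% of those tested, and by 2 of the lower genes. Over all genes tested the shares were 8.1% higher and 7.35% lower. Those with the smallest p were Cited2, a fasting-induced coregulator, at -0.72 ± 0.18 (SE) on the log2 scale, G6pc, the glucose-releasing phosphatase, at -0.48 ± 0.13 (SE), Mlxipl, the carbohydrate response factor ChREBP, at 0.48 ± 0.14 (SE), and its target Txnip at 0.50 ± 0.24 (SE). The feeding state of the mice is not given, and its part in the levels of the 34 genes was not tested. Of 20 clock genes tested, 17 were higher and 3 lower, with a median of 0.50. This list mixes morning and evening genes, so its counts and median depend on its make-up. edgeR called 0, and an unadjusted p under 0.05 was reached by 10 of the higher and 3 of the lower genes. The smallest p were those of Gm129 (2.35 ± 0.57, SE), Clock (-0.61 ± 0.15, SE), Bhlhe40 (0.85 ± 0.21, SE) and Per3 (1.94 ± 0.52, SE). When the clock score, to which Gm129, Clock and Per3 contribute, entered the model, Gm129 was at 0.98 and Per3 at 0.83. With each library left out, Gm129 ran from 1.83 (without wild type library 1) to 3.14 (without wild type library 3).

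**Figure D5:**
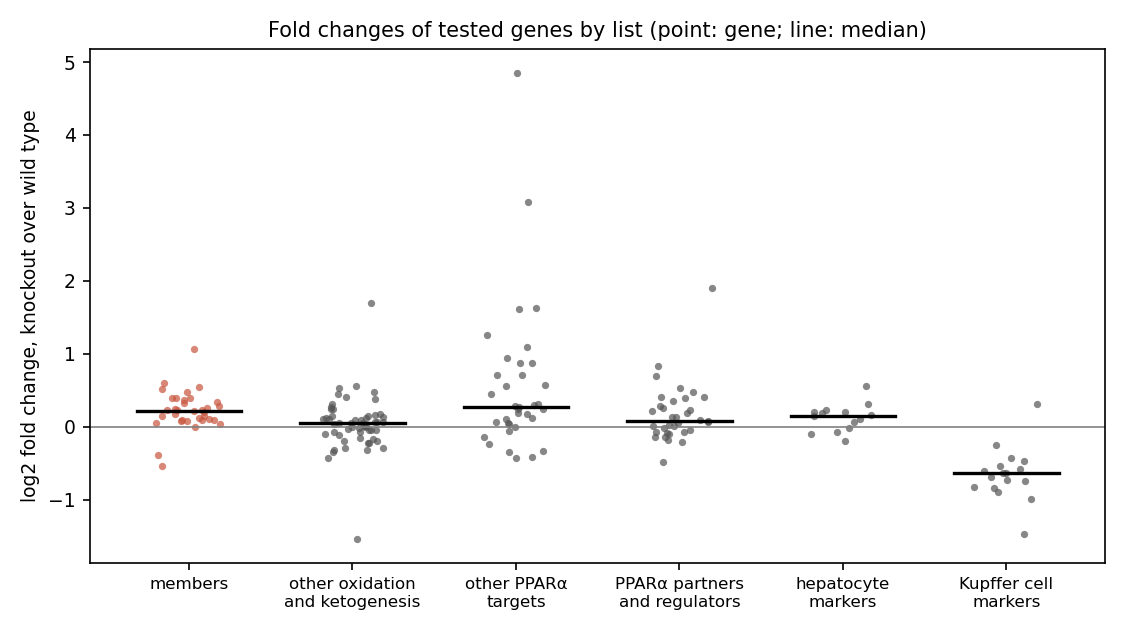
Log2 fold change, knockout over wild type (vertical axis), of each tested gene in the 34 described here and in 5 other lists, with a line at each median. The medians are 0.22 for the 34, 0.04 for the other oxidation genes, 0.26 for the other PPARα targets, 0.08 for partners and regulators, 0.15 for hepatocyte markers and -0.64 for Kupffer cell markers.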

How the data were processed

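The authors deposited whole-number read counts for each gene symbol, with no normalization and a file for each library. Per the submitters' processing notes CASAVA 1.8.2, TopHat2 2.0.8b and HTSeq were used, with the builds mm9 and hg19 named without a role; no source used here gives the annotation, the strand setting or the HTSeq version. Rows that name no gene were left out; reads outside genes made up 9.65% to 12.5% of uniquely placed reads. Counts were tested with edgeR 4.0.16 (R 4.3.3): filterByExpr (minimum count 10), TMM scaling, a quasi-likelihood fit with genotype as its only term, 2-sided tests and Benjamini-Hochberg adjustment over 12522 genes at 0.05. CPM use TMM-scaled library sizes; ratios are powers of 2 of the fitted log2 fold change, and their 95% intervals come from the same fit.

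Alternatives were median-ratio and upper-quartile scaling, no filter, at least 1 CPM in 3 libraries, DESeq2 1.42.0, limma-voom (limma 3.58.1), a replicate block, a clock score covariate and each library left out. Libraries of 1 genotype differed beyond sampling noise. The 34 genes and all gene lists were chosen with earlier results of these data known. Values per library are given for the 12 genes of smallest p and for 12 genes fixed by name, and other lists give called genes, or else the 4 of smallest p. Transcripts for shared windows come from GENCODE M21, and promoters from RefSeq GRCm38.p6. Both differ from the builds in the notes.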

Additional observations from a re-analysis of the deposited data

How the results depend on the processing

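The median log2 fold change of the 34 genes stayed between 0.15 and 0.26 under the 14 alternatives, and 27 of the 34 genes kept their direction in all of them; 28 to 33 of the 34 were higher in each. The main fit called 27 of the 12522 genes it tested. DESeq2 and the fits with another filter or a library left out did not test that same set of genes. Genes called over all numbered 133 with no filter and 435 with DESeq2 (1 of them among the 34, Cpt1a, beside 0 with edgeR). They numbered 1 with the clock score as a covariate, and 3 to 36 with each library left out. The labels state no pairing by replicate number. Deviations of same-numbered libraries from their group means had correlations of -0.08, -0.10 and -0.04 over the genes tested. These values cannot show whether such libraries shared a litter, day or batch. The fit with the replicate block called 1 gene over all and 0 of the 34, with a median of 0.23 and 12 genes higher at an unadjusted p under 0.05.

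Direction turned in genes near 0 or with 1 library apart. With upper-quartile scaling Etfdh was at -0.014, and with the clock score Acads was at 0.036, Pdk4 at 0.046, Arntl at 0.58 and Dbp at -0.46. With each library left out, log2 fold changes ran from -0.15 to 0.26 for Acaa1b, from -0.24 to 1.70 for Fgf21, from -0.032 to 0.28 for Fabp1, from -0.031 to 0.14 for Etfb, from -0.016 to 0.085 for Etfdh and from -0.072 to 0.090 for Acads. The cause was not tested. Depth limits chiefly Fgf21, with 4 to 87 counts per library.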

Other observations

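Acyl-CoA thioesterases and fatty acid ω-hydroxylases, known PPARα targets outside the 34, were named here after their values were seen. Acot4 had 10.2, 10.6 and 8.89 CPM in wild type and 20.5, 21.6 and 48.7 CPM in knockout libraries. Acot3 had 0.159, 0.608 and 0.173 CPM in wild type and 2.46, 3.98 and 22.5 CPM in knockout libraries. Cyp4a14 had 8.88, 28.9 and 11.4 CPM in wild type and 76.7, 11.7 and 329 CPM in knockout libraries, and Cyp4a10 had 19.2, 54.9 and 19.7 CPM in wild type and 58.0, 33.1 and 133 CPM in knockout libraries. Abcd2, a peroxisomal importer of very long chains, had 7.496, 6.50 and 2.60 CPM in wild type and 13.2, 7.80 and 32.9 CPM in knockout libraries. Each of these 5 genes was highest in knockout library 3, as was Acot1, but the families were not uniform. Cyp4a31, Cyp4a32 and Acot8 were highest in knockout library 1, at 6.35, 34.6 and 18.5 CPM, beside 5.35, 24.6 and 13.8 CPM in knockout library 3. Acot2 was highest in wild type library 1, at 1.54 CPM, and its log2 fold change was 0.17. None of these 10 genes was called by edgeR (lowest adjusted p 0.0806, Acot4), and sequence shared with near copies was not measured for them. Plin2, the lipid droplet coat protein and also a PPARα target, had 617, 425 and 303 CPM in wild type and 409.8, 389 and 196 CPM in knockout libraries, with its lowest value in that same knockout library.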
